A study of Mus musculus with 9 samples.

Results

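This account concerns 30 genes whose transcripts mark the neural retina and its neurons, followed through RNA sequenced from mouse lenses. They were chosen by symbol with the genotype differences and the levels per library of these same data in view, and each matched 1 of the 55416 Ensembl genes counted. Of the 30, 29 had enough reads to be among the 14903 genes tested. Lenses were microdissected at embryonic day E16.5 from 4 *Atf4* null embryos and 5 wildtype littermates, and each library holds the RNA of 1 pair of whole lenses. The null embryos were homozygous in every tissue for *Atf4tm1Tow*, in which a neomycin phosphotransferase cassette stands in place of exons 3 and 4. Both groups came from intercrosses of heterozygous mice on a mixed C57Bl/6 and 129 background, and no treatment is described. The colony was not genotyped for the *Bfsp2* deletion that 129 mice carry, and sexes were not separated. The genotype comparison was known when the list was made, so the differences between genotypes given for the 30 genes are descriptions and are not independent support for anything.

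The neural retina faces the back of the lens across the vitreous and arises from the optic cup. Its dividing progenitors are held by homeodomain factors such as RAX, SIX6 and LHX2. Proneural basic helix-loop-helix factors, among them ATOH7 and NEUROG2, then move cells out of the cycle, and ganglion cells are the earliest neurons to appear. Lens cells descend from surface ectoderm and fill with crystallins, and some genes named for neurons are also used by lens cells.

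The 9 libraries held between 7440807 and 8906996 counts on genes. *Atf4* itself stood at 155, 141, 142, 129 and 119 CPM (counts scaled to library size with TMM factors) in wildtype replicates 1 to 5 and at 3.29, 8.64, 10.6 and 0.582 CPM in *Atf4* null replicates 1 to 4, so every label held. Of 17 genes that mark the lens, 16 passed the filter on low counts. *Lim2* had 0 counts in all libraries, so sums over the 17 rest on the other 16. Whether its 0 counts come from the annotation or the counting was not tested. Wildtype replicate 5 stood apart: 10 skeletal muscle genes summed to 4376 CPM there, against 3.85 to 43.9 CPM in the other 8 libraries, and 10 mesenchyme genes to 14505 CPM, against 217 to 579.5 CPM. The 17 lens genes summed to 66704 CPM in it and to between 113971 and 122117 CPM in the other wildtype libraries. Titles and count tables of the wildtype samples disagree on which wildtype embryo is which, so replicate numbers within wildtype may be exchanged, although all are wildtype. Results that rest on wildtype replicate 5, or on *Atf4* null replicate 1, which had the highest levels of most of these transcripts, are given with and without it.

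Of the 30 genes, 21 had at least 1 entry in the RefSeq promoter sequences (GRCm38.p6). The window searched was the 250 bases before the RefSeq start, and its bases outside the gene as annotated in GENCODE are shown for *Six6*, *Atoh7* and *Pou4f2*, 3 of the 4 genes with an adjusted p below 0.05, to show what stands upstream of a progenitor, a precursor and a ganglion cell gene. Each matched GRCm39 at a single place on its chromosome: chr12:72986406-72986655 on the plus strand for *Six6*, chr10:62935314-62935429 on the plus strand for *Atoh7* and chr8:79163279-79163526 on the minus strand for *Pou4f2*. GENCODE starts *Atoh7* further upstream, so 134 of its 250 bases lie inside that gene model and 116 are shown, and 2 bases were left out for *Pou4f2*. Capitals mark matches to any of 6 motifs, searched on both strands.
Six6: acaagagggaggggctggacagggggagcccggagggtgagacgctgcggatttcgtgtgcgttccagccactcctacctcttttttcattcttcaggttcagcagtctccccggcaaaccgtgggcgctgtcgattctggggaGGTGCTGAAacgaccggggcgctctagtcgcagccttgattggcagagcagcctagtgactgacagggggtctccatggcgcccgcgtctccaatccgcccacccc
Atoh7: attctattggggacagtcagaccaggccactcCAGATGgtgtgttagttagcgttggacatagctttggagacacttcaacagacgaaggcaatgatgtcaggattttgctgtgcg
Pou4f2: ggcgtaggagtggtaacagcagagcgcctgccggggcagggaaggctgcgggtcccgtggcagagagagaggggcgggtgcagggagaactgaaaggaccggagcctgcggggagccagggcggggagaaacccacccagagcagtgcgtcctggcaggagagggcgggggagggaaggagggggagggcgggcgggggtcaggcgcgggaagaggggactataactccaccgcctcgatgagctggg

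The E-box CAGATG, a form bound by neurogenic helix-loop-helix factors, occurs in the *Atoh7* sequence, with its first base 218 bases before the RefSeq start and 84 bases before the GENCODE start. It was found upstream of 5 of the 21 genes (23.8%; *Atoh7*, *Otx2*, *Sncg*, *Elavl4* and *Stmn3*), against 16.3% of the 27025 genes in the RefSeq set. The palindromic E-box CAGCTG was also found in 5 (*Sox11*, *Pou4f1*, *Isl1*, *Elavl3* and *Elavl4*), against 14.7% of all genes. TAATCC, the site of the CRX and OTX2 homeodomains, stood upstream of *Sfrp2*, *Otx2*, *Crx* and *Isl1*, 19.0% of the 21, against 7.21%, and the homeodomain palindrome TAATTA upstream of *Otx2*, *Elavl4* and *Dcx*, 14.3%, against 5.65%. The capitals in *Six6* are TTCAGCACC on the opposite strand, the left arm of the element bound by the repressor REST, found in 0.348% of all genes and in no other of the 21. The ATF4 element TGATGCAA was found in 0 of the 21 windows and in 0.918% of all genes. The *Pou4f2* window held none of the 6. The motifs do not overlap one another in these 3 windows, and a match describes letters only.

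The 30 genes together took between 0.0437% and 0.0910% of the gene counts of a wildtype library and between 0.0562% and 0.286% of an *Atf4* null library. The extremes had Wilson 95% intervals, which cover counting error only, of 0.0423% to 0.0452% in wildtype replicate 1 and of 0.283% to 0.290% in *Atf4* null replicate 1. In CPM, the sum was 2483, 1153, 1277 and 609 in *Atf4* null replicates 1 to 4 and 473, 566, 597, 716 and 868 in wildtype replicates 1 to 5. Retinal and neuronal transcripts were thus present in every library of both genotypes, highest in *Atf4* null replicate 1 and lowest in wildtype replicate 1, and *Atf4* null replicate 4 lay within the wildtype range. In whole-lens RNA, fewer lens cells, less RNA per lens cell and more retinal cells cannot be told apart. Mesenchyme genes other than *Pdgfra*, described with the neighboring tissues, also had a higher sum in all 4 *Atf4* null libraries than in wildtype replicates 1 to 4, and their part in the retinal difference was not tested.

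**Figure D1:**
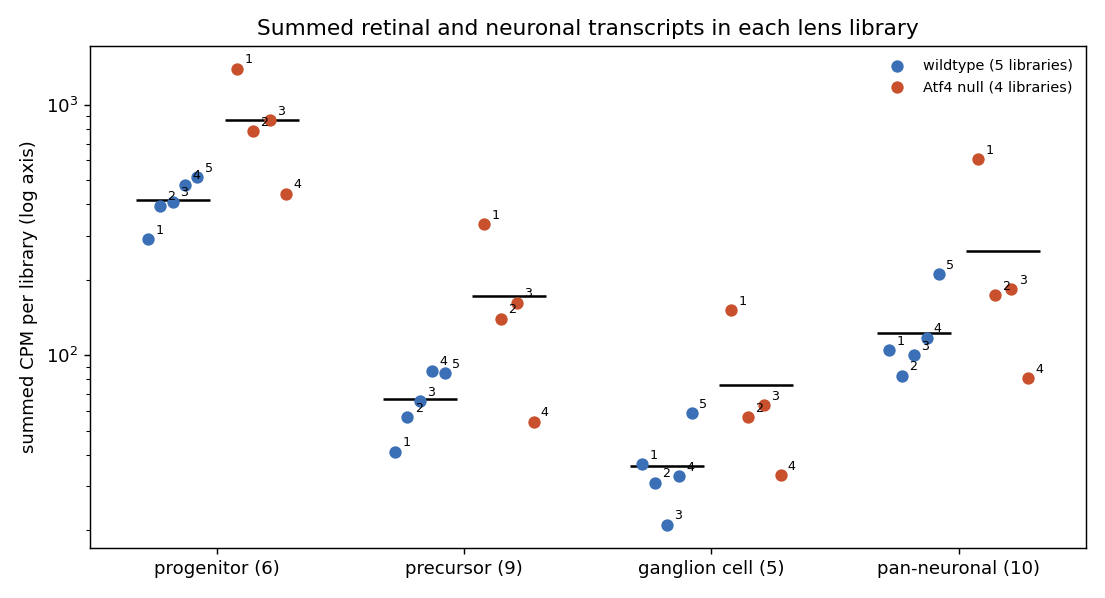
Summed CPM (log axis) of the 6 progenitor, 9 precursor, 5 ganglion cell and 10 pan-neuronal genes in each library. Points are libraries, labelled with their replicate number, blue for wildtype and red for *Atf4* null, and bars are group means; *Atf4* null replicate 1 is the highest library of each group of genes, and replicate 4 lies within the wildtype range in the progenitor, precursor and ganglion cell groups and just below it, at 80.8 CPM, in the pan-neuronal group.

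The 6 progenitor genes summed to 872 ± 394 CPM (SD, n = 4) in *Atf4* null and 418 ± 86.3 CPM (SD, n = 5) in wildtype libraries, a ratio of 2.09. *Rax* (ENSMUSG00000024518), an eye field homeodomain factor, had 165, 107, 116 and 76.1 CPM in *Atf4* null replicates 1 to 4 and 34.7, 48.1, 61.1, 49.5 and 47.97 CPM in wildtype replicates 1 to 5. Every null library was above every wildtype library (log2 fold change 1.26, standard error 0.20, adjusted p = 0.00255 in the edgeR quasi-likelihood fit over all genes). *Six6* (chromosome 12 from 72986666 to 72991673 on the plus strand, GRCm39), which keeps retinal progenitors dividing, had 113, 95.1, 79.6 and 58.8 CPM in the null and 30.9, 36.9, 44.3, 54.7 and 31.6 CPM in the wildtype libraries. Again the groups did not overlap, though *Atf4* null replicate 4 was close to the highest wildtype library (log2 fold change 1.13, standard error 0.21, adjusted p = 0.00613). An opposite-strand gene, 4930447C04Rik, overlaps *Six6* with a mean of 18.7 CPM, and the strand setting of the counting is not given in the sources used here.

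*Lhx2*, a LIM homeodomain factor of the optic vesicle, had 117, 81.9, 93.6 and 40.5 CPM in the null libraries in the same order and 39.2, 50.7, 58.7, 37.97 and 42.1 CPM in wildtype. *Fgf15*, a growth factor of retinal progenitors, had 339, 191, 211 and 79.8 CPM in null and 60.7, 97.5, 90.05, 142 and 91.9 CPM in wildtype libraries. For both, null replicates 1 to 3 were above all wildtype libraries and replicate 4 was not. *Sfrp2*, a secreted modulator of WNT signaling, stood at 328, 146, 202 and 94.1 CPM in null and 60.3, 81.1, 64.6, 80.9 and 178 CPM in wildtype libraries. Its value in wildtype replicate 5 was more than 2 times that of any other wildtype library. *Sox11*, a SOX factor of progenitors and young neurons in many tissues, stood at 332, 163, 166 and 91.4 CPM in null and 64.2, 81.5, 91.7, 114 and 122 CPM in wildtype, with null replicate 4 inside the wildtype range. The log2 fold changes of these 4 genes lay between 0.86 and 1.09, with edgeR adjusted p from 0.0566 to 0.109. They thus did not pass the threshold of 0.05 with all libraries. All 4 passed it without wildtype replicate 5 (edgeR adjusted p from 0.00270 to 0.0446). None of them passed without *Atf4* null replicate 1 (log2 fold changes from 0.57 to 0.74, edgeR adjusted p from 0.148 to 0.310). With both libraries left out, *Sfrp2* and *Sox11* passed and *Lhx2* and *Fgf15* did not.

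The 9 precursor genes, which encode factors of cells leaving the cycle, summed to 172 ± 117 CPM (SD, n = 4) in *Atf4* null and 67.0 ± 19.3 CPM (SD, n = 5) in wildtype libraries, a ratio of 2.57. *Atoh7*, required for the formation of ganglion cells, had 87.8, 38.3, 51.6 and 20.1 CPM in null replicates 1 to 4 and 14.4, 18.5, 16.6, 20.9 and 12.96 CPM in wildtype replicates 1 to 5. Its null replicate 4 was just below the highest wildtype library, and the gene differed by 1.57 on the log2 scale (standard error 0.33, adjusted p = 0.0118, edgeR). *Neurog2*, another proneural factor, had 69.97, 27.6, 26.4 and 14.6 CPM in null and 3.72, 9.63, 15.6, 15.3 and 15.4 CPM in wildtype libraries. *Neurod1*, of photoreceptor and amacrine precursors, had 30.8, 15.7, 15.6 and 5.10 CPM in null and 6.42, 5.92, 4.45, 5.19 and 9.10 CPM in wildtype. Both had null replicates 1 to 3 above all wildtype libraries, with log2 fold changes of 1.54 and 1.43 (adjusted p = 0.0622 and 0.061).

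*Onecut2*, of horizontal and ganglion cells, stood at 56.1, 21.5, 30.6 and 6.11 CPM in null and 5.01, 13.1, 11.98, 12.8 and 10.3 CPM in wildtype libraries. *Onecut1*, of the same cells, stood at 21.1, 2.52, 7.57 and 0.437 CPM in null and 1.16, 1.97, 4.08, 4.56 and 3.43 CPM in wildtype. *Otx2*, of photoreceptor precursors and the pigment epithelium, stood at 27.2, 15.5, 16.2 and 4.37 CPM in null and 4.49, 4.32, 3.83, 11.5 and 9.96 CPM in wildtype. In each, null replicate 1 was the highest library and null replicate 4 lay within or below the wildtype values (log2 fold changes 1.43, 1.38 and 1.21; adjusted p = 0.0965, 0.354 and 0.168). *Crx*, the photoreceptor homeodomain factor, had 22.4, 10.1, 5.04 and 2.18 CPM in null and 2.57, 0.494, 3.58, 7.85 and 8.78 CPM in wildtype libraries. *Neurod4* had 15.7, 7.92, 8.005 and 1.31 CPM in null and 3.47, 2.59, 5.43, 8.61 and 12.5 CPM in wildtype. These are low and overlapping values, and null replicate 4 was the lowest library for *Neurod4* (log2 fold change 0.34, adjusted p = 0.827). *Ptf1a*, which specifies amacrine and horizontal cells, was not tested: it had 13, 6, 7 and 0 counts in the null libraries and 0, 1, 1, 0 and 23 counts in the wildtype libraries.

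Among ganglion cell genes, the POU4F factors differed most. *Pou4f2*, which drives ganglion cell differentiation, had 42.1, 10.2, 15.9 and 4.95 CPM in *Atf4* null replicates 1 to 4 and 2.57, 1.97, 1.61, 3.80 and 3.96 CPM in wildtype replicates 1 to 5, with no overlap (log2 fold change 2.71, standard error 0.53, adjusted p = 0.00849). *Pou4f1*, its paralog in ganglion cells and sensory neurons, had 17.5, 12.2, 6.14 and 8.01 CPM in null and 3.21, 1.73, 0.494, 0.38 and 5.25 CPM in wildtype libraries. The groups did not overlap here either, but the fold change missed the threshold (log2 fold change 2.30, standard error 0.64, adjusted p = 0.0547), and wildtype counts went down to 3. Without wildtype replicate 5 it passed (edgeR adjusted p = 0.00609), and without *Atf4* null replicate 1 it did not (log2 fold change 1.97, edgeR adjusted p = 0.143). *Pou4f1*, like *Stmn3* and *Snap25*, was higher in null replicate 4 than in null replicate 3.

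*Isl1*, a LIM homeodomain factor of ganglion and amacrine cells, stood at 25.5, 10.1, 8.99 and 1.60 CPM in null and 4.37, 4.32, 4.69, 7.72 and 8.25 CPM in wildtype libraries. *Sncg*, γ-synuclein, stood at 31.4, 10.2, 7.90 and 4.66 CPM in null and 7.83, 3.33, 3.21, 6.46 and 10.7 CPM in wildtype. *Rbpms*, an RNA-binding protein that marks ganglion cells in the adult retina, stood at 34.98, 13.7, 24.01 and 13.98 CPM in null and 18.7, 19.6, 10.99, 14.6 and 30.5 CPM in wildtype. For *Isl1*, null replicates 1 to 3 were above all wildtype libraries and replicate 4 was below them, whereas for *Sncg* and *Rbpms* only null replicate 1 was above all wildtype libraries. *Rbpms* had the smallest log2 fold change of the 29 genes, 0.20 (standard error 0.33, adjusted p = 0.82). Opposite-strand genes with means of 32.1 CPM (*Gtf2e2*) and 35.6 CPM (*Mmrn2*) overlap *Rbpms* and *Sncg*.

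The 10 pan-neuronal genes, for cytoskeleton, RNA binding and synaptic release in differentiated neurons, summed to 261 ± 235 CPM (SD, n = 4) in *Atf4* null and 123 ± 50.3 CPM (SD, n = 5) in wildtype libraries. Of the 10, 0 passed the threshold in edgeR's quasi-likelihood test, while 3 had an unadjusted p below 0.05, 0 passed with DESeq2 and 1, *Tubb3*, passed in edgeR's exactTest. Of all genes with an adjusted p, 2.23%, 3.81% and 2.73% were called higher by the 3 tests in that order, and with 10 genes a count of 0 or 1 is not told apart from these shares. *Tubb3*, neuronal β-tubulin, had 138, 41.2, 61.8 and 23.4 CPM in null replicates 1 to 4 and 19.00, 23.8, 19.3, 32.2 and 38.3 CPM in wildtype replicates 1 to 5, a difference of 1.32 on the log2 scale (standard error 0.40, adjusted p = 0.0763). *Nefm*, the medium neurofilament, had 110.1, 30.2, 22.7 and 5.82 CPM in null and 15.8, 9.01, 14.1, 16.45 and 24.3 CPM in wildtype. *Nefl*, the light neurofilament, had 64.8, 14.3, 12.2 and 2.48 CPM in null and 15.4, 5.31, 2.47, 6.20 and 18.95 CPM in wildtype. In all 3, null replicate 1 was more than 2 times the next library, and null replicate 4 was within or below the wildtype range. *Nefl* and *Nefm* overlap on opposite strands.

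*Dcx*, the microtubule protein of migrating neurons, had 54.2, 12.2, 9.43 and 4.37 CPM in null and 4.49, 5.43, 1.24, 7.59 and 30.3 CPM in wildtype libraries. *Gap43*, of growing axons, had 46.9, 13.3, 11.2 and 8.74 CPM in null and 6.68, 5.06, 5.68, 14.2 and 22.4 CPM in wildtype. *Stmn2*, a tubulin-binding stathmin of growth cones, had 54.9, 13.1, 19.8 and 8.44 CPM in null and 8.73, 5.92, 17.2, 9.37 and 23.99 CPM in wildtype. *Atf4* null replicate 1 was the highest of the 9 libraries for these genes and wildtype replicate 5 the next. *Snap25*, a protein of synaptic vesicle fusion, showed the same order, at 22.6, 3.72, 4.17 and 6.41 CPM in null and 1.93, 3.46, 2.96, 2.15 and 11.7 CPM in wildtype libraries. *Stmn3*, a stathmin of neurons, had 14.8, 9.24, 4.06 and 7.57 CPM in null and 3.72, 0.74, 3.46, 2.53 and 5.89 CPM in wildtype, with null replicates 1, 2 and 4 above all wildtype libraries. *Elavl3*, an RNA-binding protein of neurons, had 64.3, 20.4, 21.1 and 7.57 CPM in null and 11.04, 13.2, 17.5, 16.3 and 24.8 CPM in wildtype. *Elavl4*, its relative, had 35.9, 15.5, 16.6 and 5.97 CPM in null and 17.97, 10.7, 15.9, 10.51 and 9.53 CPM in wildtype. For both *Elavl* genes null replicate 1 was the highest library and null replicate 4 the lowest (log2 fold changes 0.77 and 0.52, adjusted p = 0.389 and 0.537).

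**Figure D2:**
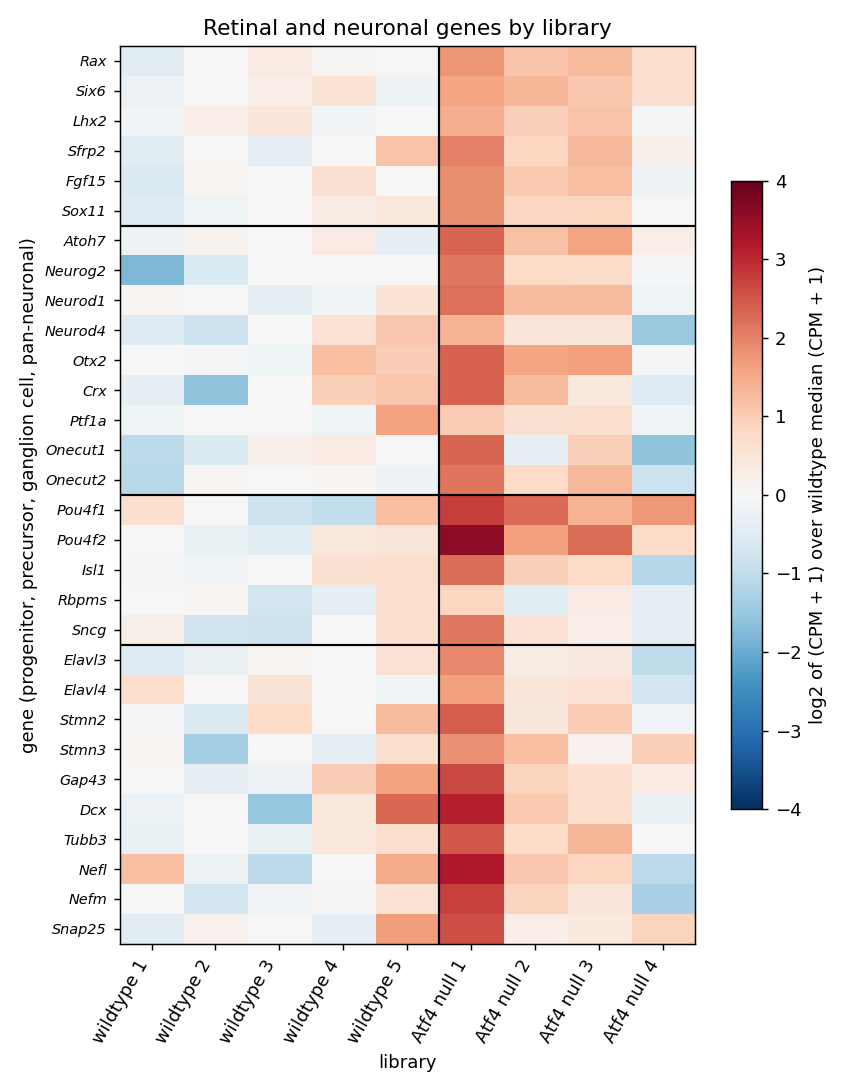
Each of the 30 genes (rows, grouped as progenitor, precursor, ganglion cell and pan-neuronal) in each library (columns), as log2 of CPM + 1 over the wildtype median CPM + 1; red is above and blue below that median. The column of *Atf4* null replicate 1 is red throughout, replicates 2 and 3 are paler, and replicate 4 is above the wildtype median for 9 of 30 genes.

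Per kilobase of exon, which allows levels of different genes to be set side by side, *Sfrp2* (40.4 FPKM in wildtype, 83.7 FPKM in *Atf4* null) and *Fgf15* (31.5 and 67.1 FPKM) were the most abundant of the 30, followed in wildtype by *Sox11* (11.4 FPKM), *Atoh7* (10.2 FPKM) and *Six6* (9.90 FPKM). The ganglion cell genes lay between 0.467 and 1.48 FPKM in wildtype. *Gap43* (5.69 FPKM) and *Tubb3* (8.26 FPKM) were the highest pan-neuronal genes, and the other 8 lay at or below 2.82 FPKM.

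All 29 tested genes had a positive log2 fold change, with a median of 1.10, against 50.1% of all genes tested and a median of 0.00. *Rax*, *Six6*, *Atoh7* and *Pou4f2* had an adjusted p below 0.05, 13.8% of the 29, where 2.23% of all 14903 genes were called higher (5.90% in either direction). None of the 29 was called lower, where 3.67% of all genes were; this count of 0 was also 0 at an unadjusted p below 0.05, and 0 with DESeq2 and exactTest. *Rax*, *Six6*, *Pou4f1* and *Pou4f2* did not overlap between genotypes, where every null library was above every wildtype library for 4.65% of all genes, and 0 of the 29 lay wholly below wildtype, where 5.58% of all genes did. Since the list was made with this comparison known, nothing is read from these shares.

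Library by library, *Atf4* null replicate 1 was the highest of the 9 libraries for 29 of the 30 genes. It was above every wildtype library for 29 genes, null replicate 2 for 17, null replicate 3 for 16 and null replicate 4 for 5. The 5 of null replicate 4 are *Rax*, *Six6*, *Pou4f1*, *Pou4f2* and *Stmn3*. Wildtype replicate 5 was above the wildtype median for 22 of 30 genes and wildtype replicate 1 for 6. Without *Atf4* null replicate 1, the same 4 genes passed, where 2.32% of all genes were called higher, with log2 fold changes of 1.05 for *Rax* (adjusted p = 0.00593), 0.98 for *Six6* (0.0172), 1.14 for *Atoh7* (0.0302) and 1.89 for *Pou4f2* (0.0378, against 2.71 with all libraries), but the groups of genes parted. The median log2 fold change went from 1.07 to 0.70 for the 6 progenitor genes, with 6 of 6 positive, and from 1.04 to 0.05 for the 10 pan-neuronal genes, with 6 positive and 4 negative. For the precursor genes it went from 1.41 to 0.84 and for the ganglion cell genes from 1.10 to 0.26. The median of all genes was -0.03 without that library. *Elavl3*, *Elavl4*, *Dcx*, *Nefl*, *Neurod4* and *Rbpms* changed sign, to between -0.19 and -0.01.

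**Figure D3:**
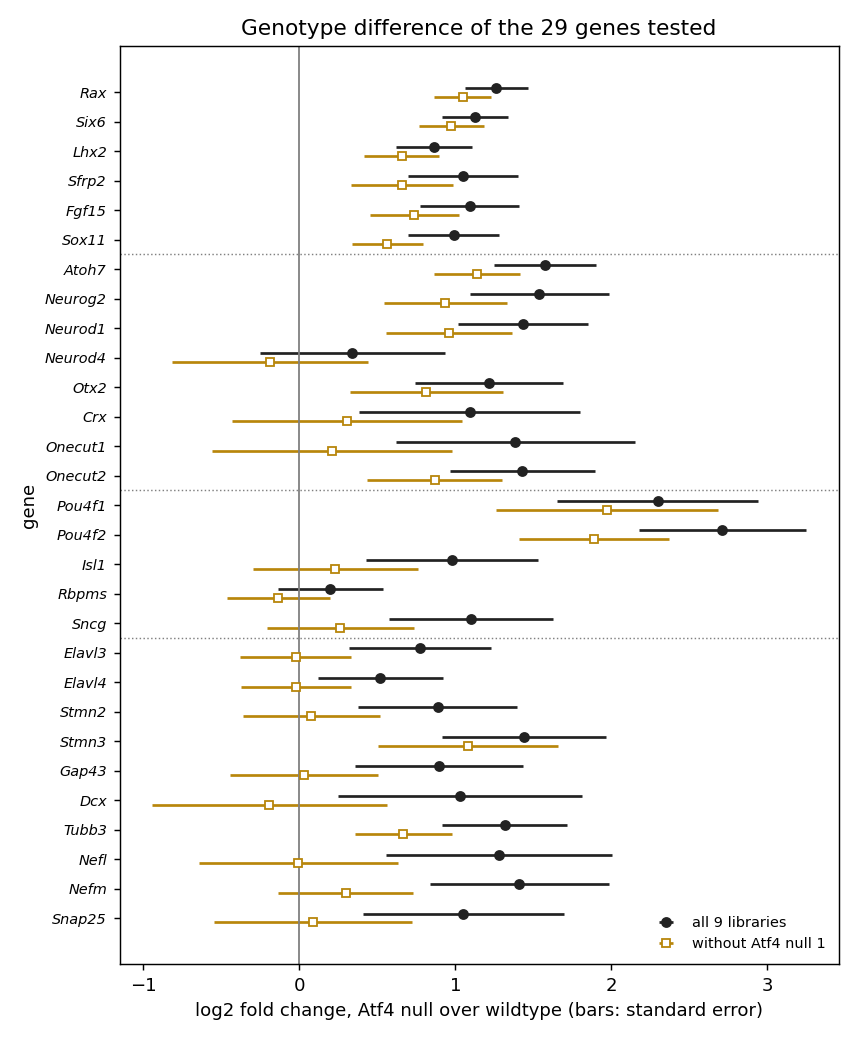
Log2 fold change of the 29 genes tested, *Atf4* null over wildtype, with all 9 libraries (filled circles) and without *Atf4* null replicate 1 (open squares); bars are standard errors and dotted lines part the 4 groups of genes. Without that library the progenitor genes stay between 0.57 and 1.05, while 8 of the 10 pan-neuronal genes lie between -0.19 and 0.30.

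Leaving out *Atf4* null replicate 1 moved the ratio of summed CPM between genotypes from 2.09 to 1.67 for the progenitor genes and from 2.12 to 1.23 for the 15 ganglion cell and pan-neuronal genes. Without wildtype replicate 5 these ratios were 2.21 and 2.55, and without both libraries 1.78 and 1.501. Of the 29 genes, 12 passed the threshold without wildtype replicate 5, where 3.37% of all genes were called higher (all 6 progenitor genes, *Atoh7*, *Neurog2*, *Neurod1*, *Pou4f1*, *Pou4f2* and *Tubb3*), 14 without *Atf4* null replicate 4 (1.89% of all genes), and 7 without both *Atf4* null replicate 1 and wildtype replicate 5 (3.91% of all genes).

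The balance of progenitor to neuronal transcripts differed between libraries of the same genotype. The progenitor sum was 1.84, 3.41, 3.53 and 3.87 times the neuronal sum in *Atf4* null replicates 1 to 4 and 2.05, 3.48, 3.40, 3.18 and 1.91 times in wildtype replicates 1 to 5. The ratios did not divide by genotype. Null replicate 2 was inside the wildtype range of 1.91 to 3.48, null replicate 1 below it and null replicates 3 and 4 above it. The 3 libraries lowest in this ratio, *Atf4* null replicate 1 and wildtype replicates 1 and 5, had values of 1.84 to 2.05 where the other 6 had 3.18 to 3.87. Precursor genes amounted to 23.9%, 17.8%, 18.6% and 12.3% of the progenitor sum in the null libraries and to between 14.2% and 18.1% in wildtype.

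The lens sum was lowest in *Atf4* null replicate 1, where the retinal sum was highest, and next lowest in wildtype replicate 5. The 17 lens genes summed to 50695, 78253, 75528 and 120000 CPM in *Atf4* null replicates 1 to 4. Null replicates 2, 3 and 4 were within the wildtype range of 66704 to 122117 CPM. Without wildtype replicate 5 the range began at 113971 CPM and only null replicate 4 was inside it. Of the 16 lens genes tested, 15 had a negative log2 fold change. The edgeR quasi-likelihood test called 5 lower, *Crygb*, *Crygs*, *Bfsp1*, *Foxe3* and *Cdh1*, where 3.67% of all genes were. The progenitor sum was 2.75%, 1.00%, 1.15% and 0.367% of the lens sum in the null libraries and 0.237%, 0.347%, 0.349%, 0.403% and 0.770% in wildtype replicates 1 to 5. TMM factors rescale each library as a whole and do not adjust for its shares of lens and retinal RNA. With library size alone, the median log2 fold change was 1.28 for the 29 genes and 0.12 for all genes, against 1.10 and 0.00 with TMM factors. The part of the lens difference in the retinal difference was not tested further.

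**Figure D4:**
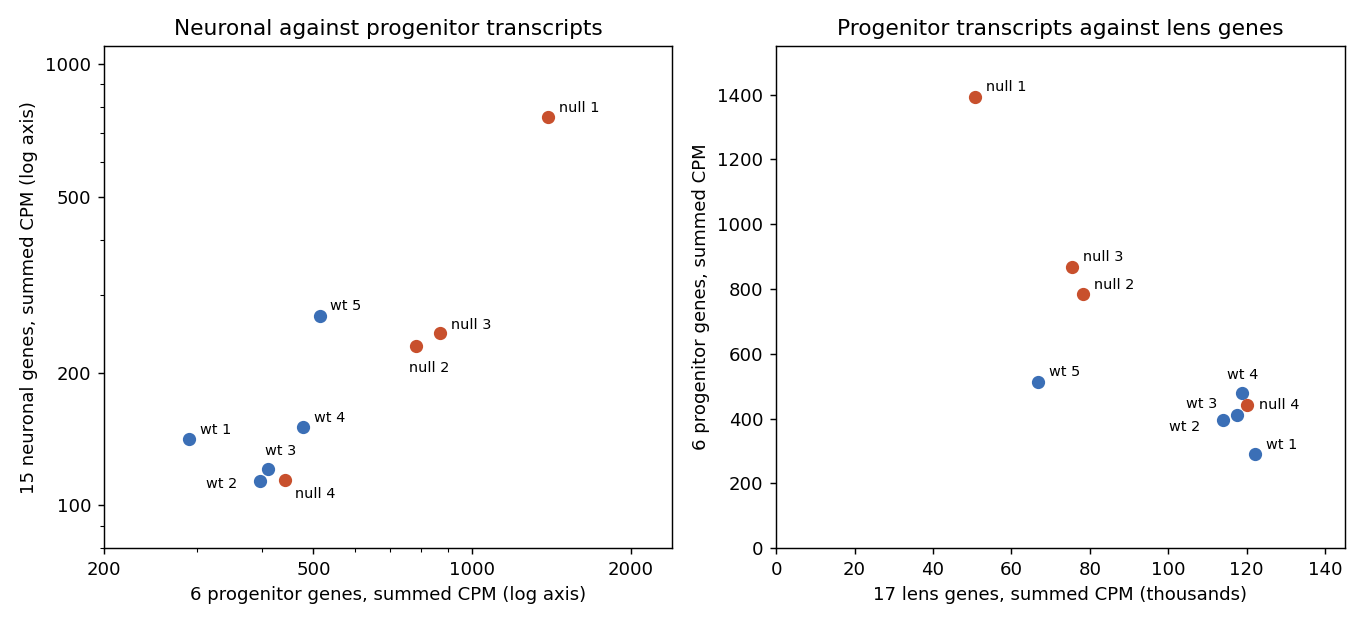
Left, summed CPM of the 15 neuronal genes against the 6 progenitor genes, both on log axes; right, summed CPM of the 6 progenitor genes against that of 17 lens genes, in units of 1000 CPM. Each point is a library (blue wildtype, red *Atf4* null); *Atf4* null replicate 1 has 1393 progenitor CPM and the lowest lens sum, and replicate 4 lies among the wildtype libraries.

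Other retinal genes, from lists that also were drawn up with earlier results known, gave further values. *Msi1*, an RNA-binding protein of progenitors, stood at 499.6, 409.6, 389 and 407 CPM in null and 404, 385, 351, 389 and 257 CPM in wildtype (log2 fold change 0.25, adjusted p = 0.359), and *Dll1*, a Notch ligand, at 40.9, 42.8, 40.1 and 13.5 CPM in null and 14.8, 23.6, 23.96, 17.97 and 14.99 CPM in wildtype (log2 fold change 0.85, adjusted p = 0.125), so neither passed the threshold. Of 8 amacrine and horizontal cell genes, 4 were tested and 1 was called higher: *Tfap2b*, at 35.2, 25.6, 20.2 and 6.70 CPM in null and 2.82, 2.72, 6.67, 2.03 and 12.3 CPM in wildtype libraries (log2 fold change 2.04, adjusted p = 0.0416). *Foxn4*, which acts upstream of *Ptf1a*, had 88.9, 45.8, 64.7 and 24.3 CPM in null and 16.7, 19.1, 20.6, 48.1 and 20.5 CPM in wildtype (log2 fold change 1.16, adjusted p = 0.0839, or 0.0118 with DESeq2 and 0.0349 with exactTest). Of this list DESeq2 called 3 higher, *Tfap2b*, *Foxn4* and *Bhlhe22*, and exactTest 2, *Tfap2b* and *Foxn4*. Of all genes, edgeR's quasi-likelihood test called 2.23% higher and 3.67% lower, DESeq2 3.81% and 5.66%, and exactTest 2.73% and 4.38%, and the counts for this list and for those that follow stand against these shares. Of 10 photoreceptor genes, 3 were tested and 0 called by edgeR, DESeq2 or exactTest, with 0 at an unadjusted p below 0.05. *Nrl*, *Nr2e3* and *Opn1mw*, of mature or maturing photoreceptors, had at most 3 counts in any library.

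Of 20 other neuronal genes, 17 were tested, 2 were called higher and 1 lower, the same 3 genes with DESeq2 and exactTest. *Syt1*, the calcium sensor of synaptic vesicles, had 52.1, 16.1, 13.9 and 9.75 CPM in null and 3.34, 5.18, 4.82, 8.10 and 7.92 CPM in wildtype libraries, without overlap (log2 fold change 1.97, adjusted p = 0.0212). *Cntn2*, an axonal adhesion protein of young ganglion cells, had 138, 34.2, 48.03 and 20.7 CPM in null and 13.1, 8.27, 16.8, 21.6 and 26.8 CPM in wildtype (log2 fold change 1.80, adjusted p = 0.0384). *Uchl1*, a ubiquitin hydrolase abundant in neurons, fell instead, at 88.8, 102, 93.97 and 101 CPM in null and 189.9, 175, 175, 179 and 122 CPM in wildtype libraries (log2 fold change -0.80, standard error 0.13, adjusted p = 0.00315). *Map2*, a dendritic microtubule protein, had 133, 53.4, 59.2 and 39.2 CPM in null and 70.5, 55.4, 50.8, 50.8 and 67.8 CPM in wildtype (log2 fold change 0.27, adjusted p = 0.672). Of these called genes, *Tfap2b*, *Syt1* and *Cntn2* each lost the call without *Atf4* null replicate 1 (adjusted p = 0.118, 0.0866 and 0.140, with log2 fold changes of 1.70, 1.17 and 0.98) and also without several other single libraries, while *Uchl1* was called in all 16 alternative fits. Without *Atf4* null replicate 1 the log2 fold change of *Map2* was -0.22.

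Of 12 genes of the REST complex, which silences neuronal genes in other cells, 0 were called by edgeR, DESeq2 or exactTest and 4 had an unadjusted p below 0.05. *Rest* itself had 177, 186, 189.7 and 160.3 CPM in null and 200.2, 164, 152, 193 and 161 CPM in wildtype libraries (log2 fold change 0.03, adjusted p = 0.918).

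Neighboring tissues were checked with lists of their own. Of 10 pigment cell genes, 6 were tested and 0 called by edgeR, DESeq2 or exactTest, with 0 at an unadjusted p below 0.05, a median log2 fold change of 0.03 and sums of 199 to 294 CPM in null and 173 to 309.9 CPM in wildtype libraries. *Rpe65*, of mature pigment epithelium, had 0 counts in all 9 libraries. *Pmel*, of melanosomes, was highest in wildtype replicate 5, at 63.6 CPM, and in null replicate 2, at 59.99 CPM, not in null replicate 1, at 38.3 CPM. Without wildtype replicate 5, 2 of the 6, *Pmel* and *Dct*, were called higher, where 3.37% of all genes were. Of the 4 ciliary margin genes, 0 were called by edgeR's quasi-likelihood test (2 by DESeq2, *Wfdc1* and *Zic1*, and 1 by exactTest, *Wfdc1*) and 3 had an unadjusted p below 0.05, with *Zic1* and *Wfdc1* positive (log2 fold changes 0.53 and 0.87) and *Msx1* and *Otx1* negative (log2 fold changes -0.55 and -0.20). Without wildtype replicate 5, 1 of the 4, *Wfdc1*, was called higher (3.37% of all genes). Peripheral nerve and glia genes summed to 9.37 to 15.02 CPM in null and 2.96 to 26.0 CPM in wildtype libraries, with the highest sum in wildtype replicate 5, and *Sox10*, which defines glia and melanocytes, was at 0 to 6.75 CPM. Of 10 endothelium and macrophage genes, 0 were called by edgeR (1 by DESeq2, *Pecam1*, lower) and 3 had an unadjusted p below 0.05. Of 6 erythroid genes, 5 were tested, and all 5 had a negative log2 fold change with an unadjusted p below 0.05. Of these edgeR called 1 lower, *Hba-a1*, DESeq2 4 and exactTest 3; *Hba-a1* encodes α-globin (log2 fold change -1.14, adjusted p = 0.0208, or 0.0795 without *Atf4* null replicate 3 and 0.0538 without wildtype replicate 4).

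Mesenchyme genes mark the connective tissue around the lens. Once wildtype replicate 5 was set aside, most were higher in *Atf4* null libraries, as the retinal genes were. The order of the null libraries was not the same for the summed mesenchyme and retinal genes. *Pdgfra*, a receptor that lens epithelium also carries, fell, at 26.2, 24.2, 23.8 and 6.70 CPM in null and 227, 188, 198, 179.6 and 258 CPM in wildtype (log2 fold change -3.36, adjusted p = 3.65e-05). The other 9 had summed levels of 417, 555, 325 and 210.5 CPM across the *Atf4* null libraries, and of 41.1, 58.99, 58.3, 92.3 and 14248 CPM across the wildtype libraries, the last being replicate 5. *Col1a1*, a chain of type I collagen, had 145.2, 146, 93.6 and 116 CPM in null and 8.99, 20.4, 17.3, 29.1 and 6600.1 CPM in wildtype. With all libraries its log2 fold change was -3.42 (adjusted p = 0.289), and without wildtype replicate 5 it was 2.73 (adjusted p = 6.94e-06). *Col1a2* and *Col3a1*, of type I and type III collagen, turned in the same way, to 2.52 and 2.65. Without wildtype replicate 5, 9 of the 10 mesenchyme genes were tested, 7 were called higher and 1, *Pdgfra*, lower, where 3.37% of all genes were called higher. Among the *Atf4* null libraries, replicate 2 had the highest mesenchyme sum, whereas replicate 1 had the highest retinal and neuronal sums. The 10 skeletal muscle genes summed to 16.4 to 43.9 CPM in null and to 3.85 to 19.9 CPM in wildtype replicates 1 to 4, and without wildtype replicate 5, 1 of the 4 tested, *Des*, was called higher. The part of these tissues in the retinal difference was not tested.

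Over the 9 libraries, genes with the profile most like the summed progenitor CPM were sought among 15255 others with a mean of at least 1 CPM, on the log2 scale. The 10 closest were *Tub*, *Prr36*, *Septin3*, *Phf21b*, *Nr2f1*, *Col2a1*, *Fmn2*, *Syt1*, *H1f3* and *Crmp1*, with Pearson r from 0.979 to 0.954 and, without *Atf4* null replicate 1, from 0.960 to 0.905. *Nr2f1* is a nuclear receptor of the developing retina and brain, *Septin3* and *Crmp1* encode cytoskeletal proteins of neurons, and *Col2a1* the type II collagen of the vitreous. For the summed neuronal CPM, the 10 closest were *Celsr3*, *H2bc14*, *Mical1*, *L1cam*, *Slf1*, *Cep250*, *Nsg2*, *Sbk1*, *Shisal1* and *Prdm1*, with r from 0.970 to 0.947 and, without that library, from 0.946 to 0.817. *Celsr3* and *L1cam* act in axon growth, and *Nsg2* is a neuronal vesicle protein. These genes were picked as the highest of many correlations over the same 9 libraries, so r is a description and carries no test.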

How the data were processed

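RNA from 4 *Atf4* null and 5 wildtype pairs of E16.5 lenses was sequenced after a SMARTer Stranded Pico preparation. The deposited values are raw counts per gene and library, which the authors made with Trim Galore, HISAT2, which they also used to remove ribosomal *Rn45s* reads, GRCm39 and HTSeq. The versions of these programs and the strand setting are not given in the sources used here. HTSeq's summary rows, 44.56% to 47.72% of the reads listed, were left out. From the counts, edgeR 4.0.16 (R 4.3.3) gave TMM factors, CPM and quasi-likelihood tests of 14903 genes left by its filter, with Benjamini-Hochberg adjustment. FPKM used exon lengths of GENCODE vM39. DESeq2 1.42.0 and edgeR's exactTest were alternatives, with other filters, scaling and left-out libraries. Tested on simulated data with 14344 genes, this comparison called 40% of 100 genes changed 2-fold and 82% of 100 changed 4-fold. Of the unchanged genes, 6 were called. The changed genes were drawn above a floor of counts, and noise was drawn separately for each gene. These shares need not hold for the 30 genes, which shift together in some libraries. Genes and lists were chosen with earlier results of these data known. All 30 genes were described, with up to 4 others per list, either called or the most abundant, and defining markers at or near 0. Libraries differed by more than sampling noise, with at least 7.67 chi-square units per degree of freedom in 36 pairs. Each library is 1 embryo's lens pair, so p-values cover the spread between embryos. Some results are not reported here.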

Additional observations from a re-analysis of the deposited data

Results flagged for a closer look

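Some values stood far from the other libraries of their genotype by Dixon's test, which flags about 1 in 20 groups by chance. It did so in 7 of 60 groups over the 30 genes, 3 times for *Atf4* null replicate 1 and 4 times for wildtype replicate 5. In *Atf4* null replicate 1 these were *Gap43* at 46.9 CPM, *Dcx* at 54.2 CPM and *Snap25* at 22.6 CPM. In wildtype replicate 5 they were *Sfrp2* at 178 CPM, *Dcx* at 30.3 CPM, *Snap25* at 11.7 CPM and *Ptf1a* at 2.46 CPM. The summed CPM of the 10 pan-neuronal genes (210.2) and of the 15 neuronal genes (269) also stood apart in wildtype replicate 5, the library with abundant skeletal muscle and mesenchyme transcripts. Their part in these values was not tested.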

How the results depend on the processing

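*Rax*, *Six6* and *Pou4f2* passed the threshold in all 16 alternative fits and *Atoh7* in 15. The number of the 29 genes called higher was 4 (2.23% of all genes), and 9 with DESeq2 (3.81%), 12 with exactTest (2.73%), 7 with library size alone (5.30%, with the median of all genes at 0.12 on the log2 scale), 14 with no filter on low counts (1.4%) and 7 (3.91%) with *Atf4* null replicate 1 and wildtype replicate 5 both left out, an alternative chosen after seeing the data. Leaving out 1 library gave 4 to 14 (1.11% to 3.37%). None was called lower in any of these fits. Over all genes, 880 were called, 1397 with DESeq2, 1339 with both libraries left out and 527 to 1207 with 1 library left out. The ratio of summed progenitor CPM ranged from 1.67 to 2.42 and that of summed neuronal CPM from 1.23 to 2.58 with 1 library left out. With 1 library left out, the log2 fold change ranged, for *Neurod4* from -0.19 to 0.72, *Rbpms* from -0.13 to 0.44, *Elavl3* from -0.0227 to 1.08, *Elavl4* from -0.0224 to 0.81, *Dcx* from -0.19 to 2.10, *Nefl* from -0.0053 to 1.68, *Map2* from -0.22 to 0.47, *Col1a1* from -3.74 to 2.73, *Col1a2* from -3.32 to 2.52, *Col3a1* from -2.92 to 2.65 and *Rest* from -0.011 to 0.0896. The sign turned without wildtype replicate 5 for the collagen genes, without wildtype replicate 3 for *Rest* and without *Atf4* null replicate 1 for the others. With both libraries left out, *Elavl4* was at -0.11, *Map2* at -0.16, *Col1a1* at 2.65, *Col1a2* at 2.44 and *Col3a1* at 2.64. The cause of these changes was not tested beyond leaving out the libraries.

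Same-numbered libraries of the 2 genotypes did not deviate together (correlations of -0.16 to 0.01), and the numbers were not taken as pairs. Replicate numbers within wildtype may be exchanged, so these correlations cannot show whether embryos shared a litter. The block fit that follows rests on the same uncertain numbers. With the replicate number as a block, 852 genes were called, and 5 of the 29 were called higher, where 1.88% of all genes were, with *Sfrp2* and *Pou4f1* added and *Atoh7* lost (adjusted p = 0.0576). In that fit wildtype replicate 5 has no partner, and *Col1a1*, *Col1a2* and *Col3a1* were at 2.78, 2.44 and 2.61. Counts of at most 4 in the lowest library limit the precision for *Pou4f1*, *Onecut1* and *Crx*.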
